A study of Arabidopsis thaliana with 5 samples.

Results

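Transcripts of 4 genes tied to the circadian clock were examined in floral buds of the *Arabidopsis thaliana* *ask1* mutant and of the wild-type Landsberg *erecta* (L*er*). The genes are the cold-regulated gene *COR27* (AT5G42900), its relative AT4G33980, *GI* (*GIGANTEA*, AT1G22770) and the REVEILLE-type MYB gene AT5G52660. They were taken by name from the deposited table, where each is measured by 1 probe set, and are 4 of the 13356 genes that a single-gene probe set names there. The table holds 5 ATH1 arrays, on which several short probes report on a transcript: 3 of *ask1* -/- buds and 2 of wild-type L*er* buds. The mutation lies in the L*er* background, and the mutants were picked among the offspring of heterozygous plants by visible defects, such as small stature and sterile anthers. Unopened buds of all stages from the primary inflorescence were collected together, from soil-grown plants under long days, and the hour of collection is not given in the sources used here. The values are log2 signals normalized by the authors with RMA, so a difference of 1 is a 2-fold difference in signal.

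The clock of Arabidopsis is a set of genes that repress or activate each other in turn over the day. MYB proteins of the morning bind the promoters of genes that peak toward dusk, and the evening proteins in turn hold back the morning genes. *GI* is an evening gene whose protein joins the clock to day length and flowering and steadies the F-box protein ZEITLUPE. F-box proteins of this kind work inside SCF ubiquitin ligases, for which SKP1-like proteins such as ASK1 are the adaptor subunit. *COR27* is induced by light and by cold, and its protein represses other clock genes. REVEILLE proteins are MYB factors of the same family as CCA1 and LHY.

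The arrays, called by their replicate numbers, did not fall cleanly by genotype. The Pearson correlation across probe sets was 0.996 between *ask1* replicates 1 and 3, which differed by at least 2-fold in 24 probe sets. It was 0.984 between *ask1* replicate 2 and each of them, and 0.988 and 0.989 between *ask1* replicate 2 and L*er* replicates 1 and 2. The L*er* arrays correlated at 0.989 and differed by at least 2-fold in 292 probe sets. L*er* replicate 1 also stood apart in the tapetum markers measured, 2 of the 9 listed. *AMS*, a tapetum regulator, had log2 signals of 4.80, 4.39 and 4.74 in the *ask1* arrays, against 5.96 in L*er* replicate 1 and 4.61 in L*er* replicate 2. AT5G07230, from the same marker list, had 8.98, 8.62 and 9.38 in *ask1*, against 11.46 in L*er* replicate 1 and 8.31 in L*er* replicate 2. Of the 11 flower markers only *UFO* was named, and it lay between 5.99 and 6.29 on all arrays, which is too little to check the tissue. The root marker *EXPA7* and the pollen markers *MGH3* and AT5G45880 differed between the genotypes by at most 0.12 in mean log2 signal, and they are 3 of 10 listed. The probe set of *ASK1* carries no gene name here, so the mutated gene was not checked.

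*COR27* was near the same low level in all *ask1* arrays and in one of the L*er* arrays, and far higher in the other. Its log2 signals were 7.18, 7.00 and 7.42 on *ask1* arrays 1, 2 and 3, against 6.85 and 10.10 on L*er* arrays 1 and 2. The genotypes overlap, since every *ask1* array lay above L*er* replicate 1 and below L*er* replicate 2. The *ask1* arrays lay above L*er* replicate 1 by 0.33, 0.14 and 0.57, differences of 1.25-fold, 1.10-fold and 1.48-fold. Against L*er* replicate 2 the same arrays were lower by 7.54-fold, 8.56-fold and 6.38-fold. The 3 *ask1* arrays spanned 0.42, a range that 18.9% of all genes and unnamed probe sets reached or passed. By contrast the L*er* arrays lay 3.24 apart, which is 9.45-fold. *COR27* averaged 7.20 ± 0.21 in the mutant (SD, n = 3) and 8.47 ± 2.29 in the wild type (SD, n = 2). The log2 ratio, *ask1* over L*er*, was thus -1.28, with a standard error of 0.87 and a 95% confidence interval from -3.39 to 0.84. It did not pass the test (adjusted p = 0.877 from limma). The ratio was -2.90 when L*er* replicate 1 was omitted and turned to 0.35 when L*er* replicate 2 was, so single L*er* arrays set its size and its sign. The study's paper, which counts more L*er* arrays than the 2 used here, lists *COR27* among the genes lower in *ask1*. With these 2 arrays the mean was 2.42-fold lower in *ask1*, but the unadjusted p was 0.191 from limma.

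AT4G33980 was the one gene of the set whose *ask1* arrays all lay below both L*er* arrays. Its log2 signals were 5.56, 5.33 and 5.70 on *ask1* arrays 1, 2 and 3, against 6.21 and 8.56 on L*er* arrays 1 and 2. Such a separation was found for 10.7% of all genes and unnamed probe sets, and 1 gene of 4 cannot be told from that share. The distance to the L*er* arrays was uneven. The *ask1* arrays were 1.58-fold, 1.84-fold and 1.42-fold lower than L*er* replicate 1, and 8.04-fold, 9.39-fold and 7.26-fold lower than L*er* replicate 2. The mutant averaged 5.53 ± 0.19 (SD, n = 3) and the wild type 7.39 ± 1.66 (SD, n = 2). Its log2 ratio was -1.86 with a standard error of 0.63, or 3.62-fold lower in *ask1*. The 95% confidence interval from limma ran from -3.41 to -0.31. With the methods' t-test the interval was wider, from -4.68 to 0.97, and included 0. The gene met the criteria of the study's methods, a 2-fold difference and an unadjusted p under 0.05, when the limma p was used (unadjusted p = 0.0263 from limma), but not with the methods' t-test. With the limma p, 0.128% of all genes and unnamed probe sets met these criteria with a lower mean in *ask1*. AT4G33980 did not pass after adjustment (adjusted p = 0.624 from limma). Whichever array was left out, the ratio stayed below 0. It came to -3.03 when L*er* replicate 1 was omitted and to -0.68 when L*er* replicate 2 was.

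*GI* did not share this pattern. Its log2 signals were 9.21, 8.49 and 8.99 on *ask1* arrays 1, 2 and 3, against 7.04 and 8.94 on L*er* arrays 1 and 2. Here L*er* replicate 1 stood apart, below all 4 other arrays, while L*er* replicate 2 lay within the *ask1* range. The *ask1* arrays were 4.50-fold, 2.73-fold and 3.85-fold higher than L*er* replicate 1. From L*er* replicate 2 they differed by 0.27, -0.44 and 0.05 in log2 signal, without a common direction. The *ask1* arrays spanned 0.72, the widest range among the 4 genes, and 5.94% of all genes and unnamed probe sets spanned as much. *GI* averaged 8.90 ± 0.37 in the mutant (SD, n = 3) and 7.99 ± 1.34 in the wild type (SD, n = 2). The log2 ratio was 0.91 with a standard error of 0.54, and its 95% confidence interval from -0.42 to 2.23 includes 0 (adjusted p = 0.851 from limma). It came to 1.85 when L*er* replicate 2 was omitted and to -0.041 when L*er* replicate 1 was. The array in which *GI* was low is also the one in which the tapetum markers *AMS* and AT5G07230 were high. In bulk buds, fewer cells of a type and less RNA per cell cannot be told apart, and the part of bud composition in these differences was not tested.

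AT5G52660 was close to level across the arrays. Its log2 signals were 7.58, 7.77 and 7.57 on *ask1* arrays 1, 2 and 3, against 7.72 and 7.87 on L*er* arrays 1 and 2. The genotypes overlap, because *ask1* replicate 2 lay above L*er* replicate 1. No *ask1* array differed from a L*er* array by more than 1.23-fold. AT5G52660 averaged 7.64 ± 0.11 in the mutant (SD, n = 3) and 7.79 ± 0.11 in the wild type (SD, n = 2). Its log2 ratio was -0.15, with a standard error of 0.11 and adjusted p = 0.896 from limma. The 95% confidence interval from -0.43 to 0.12 held no 2-fold difference, higher or lower. The same was true of 93.9% of all genes and unnamed probe sets, but of none of the other 3 genes. Leaving out 1 array at a time gave ratios between -0.23 and -0.07.

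**Figure D1:**
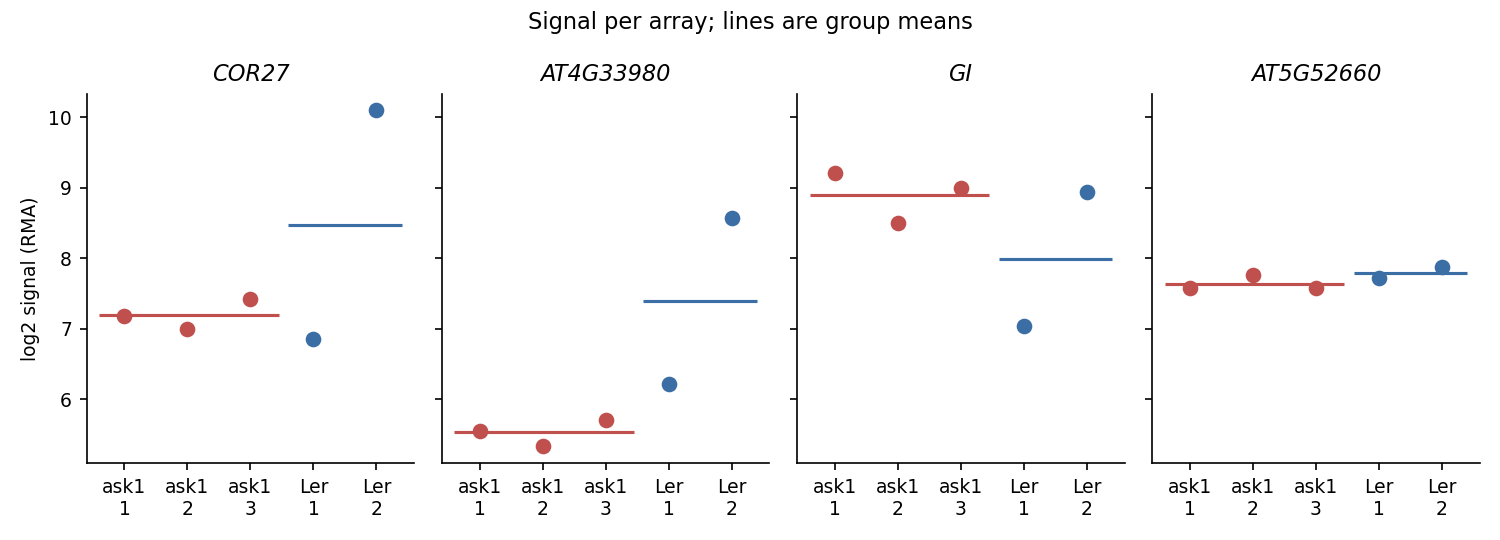
Each panel plots the log2 RMA signal (vertical axis) of 1 gene on the 3 *ask1* arrays (red) and the 2 L*er* arrays (blue), with horizontal lines at the group means. *COR27* and AT4G33980 are high in L*er* replicate 2, at 10.10 and 8.56, *GI* is low in L*er* replicate 1, at 7.04, and AT5G52660 stays between 7.57 and 7.87.

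Set side by side, 3 of the 4 genes had a lower mean in *ask1*, where 52.5% of all genes and unnamed probe sets did, and the median log2 ratio of the 4 was -0.71 beside -0.01 over all. A mean at least 2-fold lower was found in 2 of the 4, *COR27* and AT4G33980, and in 0.527% of all. Both rest on L*er* replicate 2, without which neither mean was 2-fold lower. Because the 4 genes were chosen with earlier results of these data known, the shares set beside them are a description only. By limma with adjustment over all genes and unnamed probe sets, 0 of the 4 passed, and 0.0133% of all did. At an unadjusted p under 0.05 there was 1 of the 4 by limma, AT4G33980, where 6.95% of all genes and unnamed probe sets (1569 of 22589) had such a p. By the methods' t-test there was 0 of the 4, and 5.85% of all. No *ask1* group spanned a 2-fold range in any of the 4 genes, as 2.86% of all genes and unnamed probe sets did. All 4 were thus steadier among the *ask1* arrays than the first 3 were between the L*er* arrays.

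**Figure D2:**
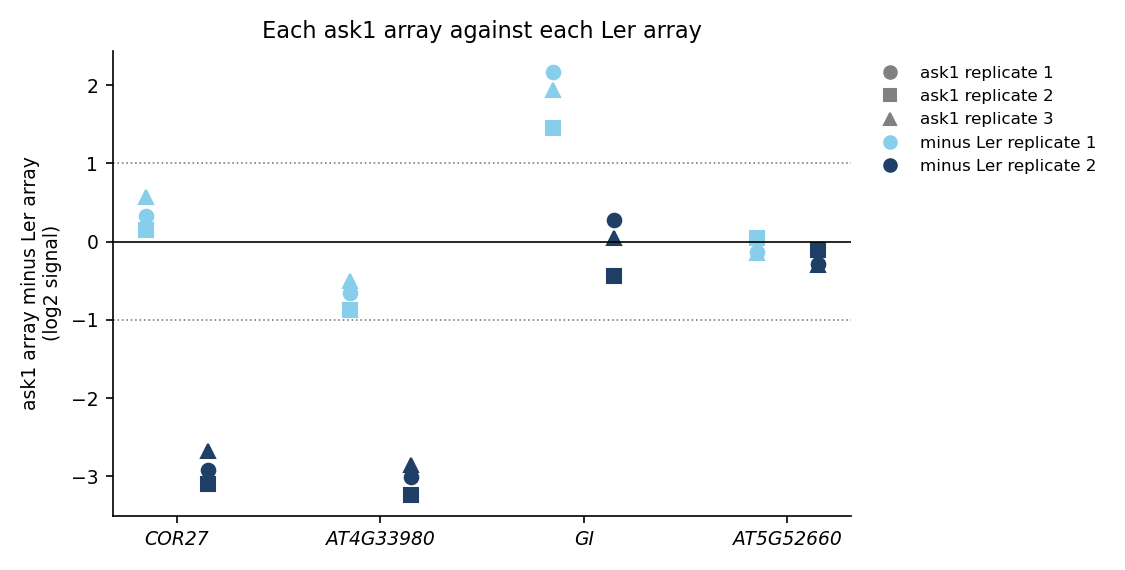
The difference in log2 signal (vertical axis) of each *ask1* array minus each L*er* array is plotted for the 4 genes, with the shape giving the *ask1* replicate and the shade the L*er* replicate, and dotted lines at a 2-fold difference. For *COR27*, AT4G33980 and *GI* the points fall into a cluster for each L*er* array, so that for *COR27* they lie between 0.14 and 0.57 against L*er* replicate 1 and between -3.10 and -2.67 against L*er* replicate 2.

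**Figure D3:**
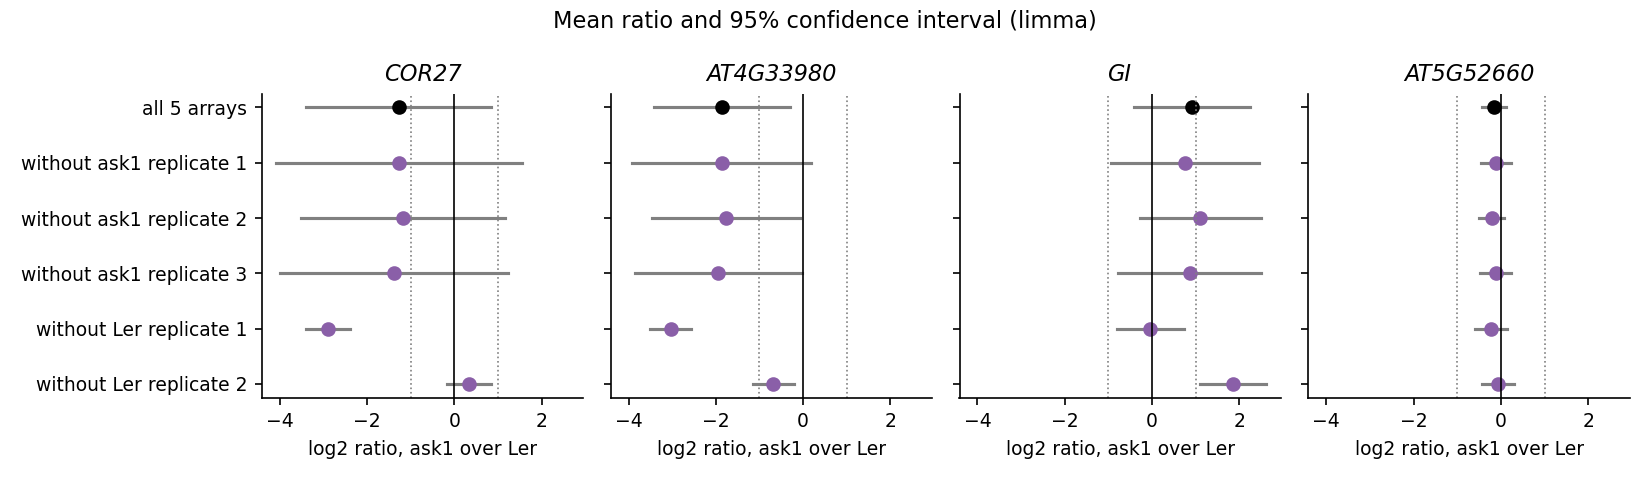
The mean log2 ratio of *ask1* over L*er* (horizontal axis) is shown with its 95% confidence interval from limma, with all 5 arrays (black) and with each array left out in turn (purple), and with dotted lines at a 2-fold difference. Leaving out an *ask1* array moves a ratio by at most 0.20, whereas leaving out a L*er* array moves that of *COR27* between -2.90 and 0.35 and that of *GI* between -0.041 and 1.85.

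The difference between the wild-type arrays was then described over the whole table. It is a difference of single arrays and has no replicate, so no test was made. L*er* replicate 2 was at least 2-fold above L*er* replicate 1 in 3 of the 4 genes, *COR27*, AT4G33980 and *GI*, and in 0.319% of all genes and unnamed probe sets. Ordered by this difference, *COR27* was the first of the 13356 named genes, at 3.24. AT4G33980 was the fourth at 2.35, which is 5.11-fold, and *GI* the seventh at 1.90, which is 3.72-fold. AT5G52660 differed by 0.15, which 3086 of the named genes reached or passed in that direction. The other genes among the first 9 were AT1G56300 (2.70), AT4G30650 (2.49), AT1G07050 (2.20), *COR15B* (1.95), AT4G16146 (1.57) and *COR15A* (1.48). Ranks 10 to 12 followed closely, with AT5G62360 (1.47), AT4G32340 (1.34) and AT4G30660 (1.30). They are named because of this rank, so their place is a description only. The 4 genes themselves were chosen with earlier results of these data known. Their ranks, and the 3 of 4 beside 0.319%, are therefore a description too. With the sign left aside, 4 named genes differed by as much as *COR27* or more, *COR27* included.

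**Figure D4:**
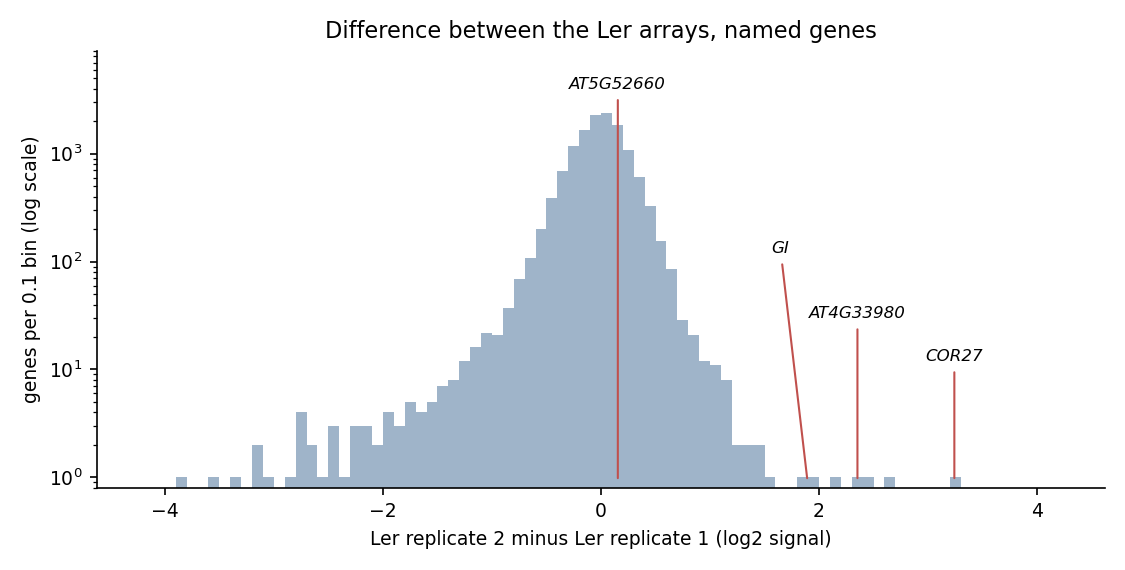
The histogram counts named genes (vertical axis, log scale) by the log2 signal of L*er* replicate 2 minus L*er* replicate 1 (horizontal axis, bins of 0.1), and red lines mark the 4 genes. *COR27* (3.24), AT4G33980 (2.35) and *GI* (1.90) lie in the sparse right tail, and AT5G52660 (0.15) lies in the bulk.

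The way each gene varied over the 5 arrays was compared with that of 9632 other named genes with a mean log2 signal of at least 5. Likeness was measured as the root mean square difference between log2 profiles, each centred on its own mean, so that probe brightness plays no part. *COR27* and AT4G33980 differed by 0.40 on this measure, where the spread of each around its own mean was 1.21 and 1.18. *COR27* was the nearest of all these genes to AT4G33980, and 1 gene, AT1G07050, lay nearer to *COR27* than AT4G33980 did. This likeness lies mostly in L*er* replicate 2, which deviated by 2.39 from the mean of *COR27* and by 2.29 from that of AT4G33980. It thus largely restates the difference between the L*er* arrays given above. The gap between the pair lay mostly in L*er* replicate 1, which deviated by -0.86 from the mean of *COR27* and by -0.06 from that of AT4G33980.

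AT1G07050 was at 0.37 from *COR27* and 0.43 from AT4G33980. Its log2 signals were 4.87, 4.44 and 4.93 on *ask1* arrays 1, 2 and 3, against 4.64 and 6.84 on L*er* arrays 1 and 2, so it too was high in L*er* replicate 2 alone. On every other array AT1G07050 was below 5. It thus met the mean-signal limit of 5 only through L*er* replicate 2, the array in which the likeness lies. AT5G62360 followed for both, at 0.59 from *COR27* and 0.43 from AT4G33980. Next for *COR27* came AT4G16146 (0.67) and AT4G32340, a tetratricopeptide repeat gene (0.69). For AT4G33980 they were AT4G32340 (0.45) and the acid phosphatase gene AT2G39920 (0.54). All 5 of these further genes had their highest signal in L*er* replicate 2 and their lowest in *ask1* replicate 2, as AT4G33980 did. The lowest *COR27* signal was instead in L*er* replicate 1.

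*GI* lay 1.17 from *COR27* and 1.37 from AT4G33980, wider than its spread of 0.78 around its own mean, and 2038 genes were nearer to *COR27* than *GI* was. The spreads of *COR27* and AT4G33980 were themselves 1.21 and 1.18. Even AT5G52660, close to level, lay 1.14 and 1.10 from them. The profiles are not scaled, so these distances reflect the size of a gene's changes as well as their shape. The genes closest to *GI* were *OPCL1*, whose product activates a jasmonate precursor (0.32), AT5G52390 (0.33), AT2G34810 (0.37), AT3G51660 (0.38) and AT5G35735 (0.41). *OPCL1* had log2 signals of 8.39, 7.90 and 8.07 on *ask1* arrays 1, 2 and 3, against 7.00 and 8.05 on L*er* arrays 1 and 2. Each of the 5 was lowest in L*er* replicate 1, with L*er* replicate 2 above it by 0.80 (AT5G35735) to 1.13 (AT5G52390), less than the 1.90 of *GI*. The nearest genes to AT5G52660, from AT3G60310 at 0.01 to AT3G08840 at 0.03, say little, since AT5G52660 itself spread by only 0.11 and 1246 genes were closer to it than that. These likenesses come from 5 arrays that share 1 normalization and are given without a test.

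**Figure D5:**
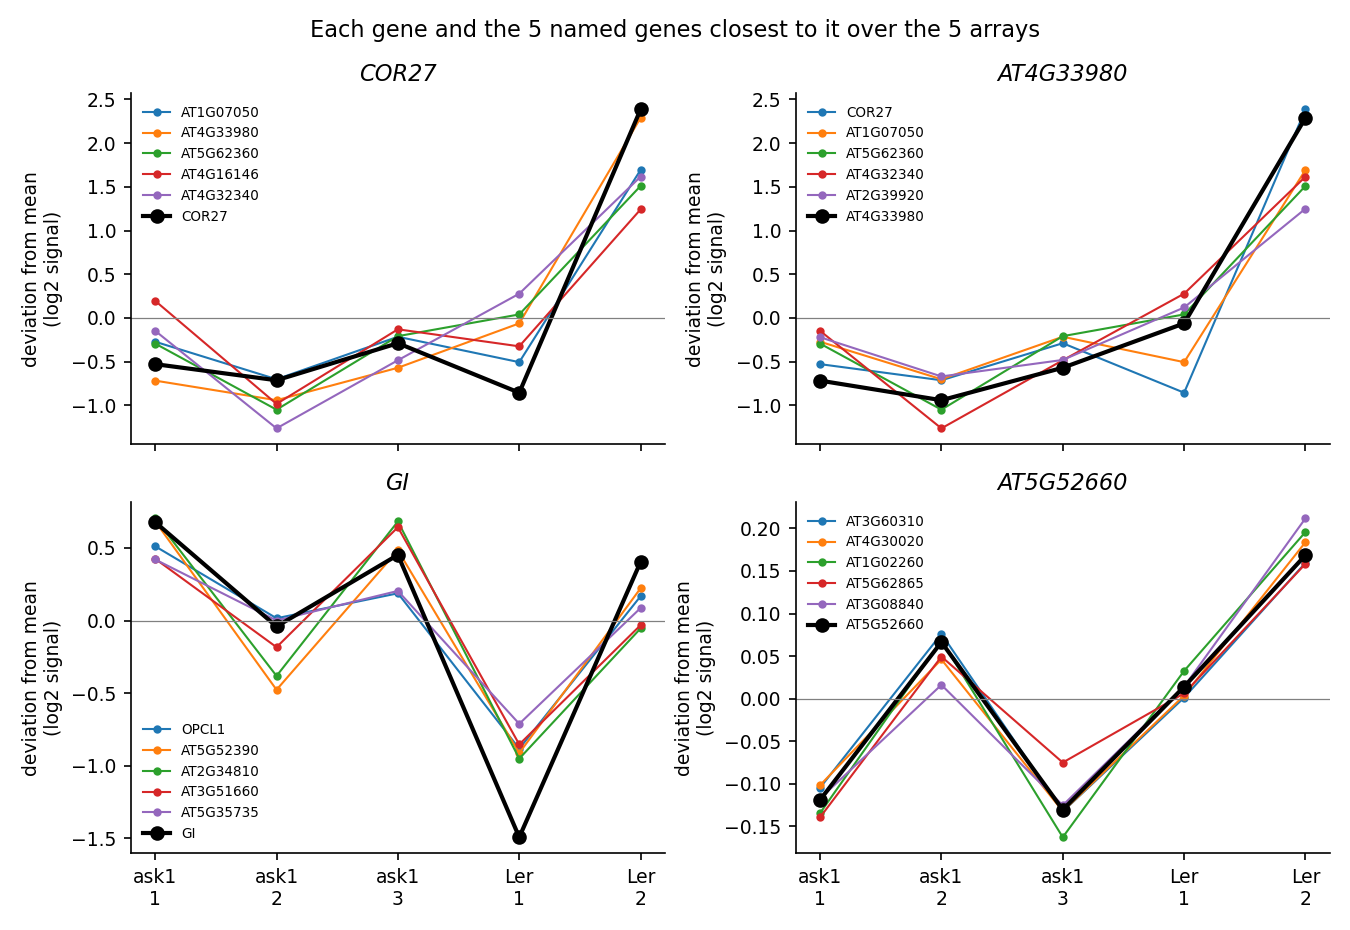
For each of the 4 genes (black) and the 5 named genes nearest to it (colours), the deviation of the log2 signal from the gene's own mean (vertical axis, scaled per panel) is drawn for the 5 arrays, and the lines only join points of 1 gene. In the upper panels L*er* replicate 2 is highest, in the panel of *GI* L*er* replicate 1 is lowest, and the panel of AT5G52660 spans far less than the others.

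Few further clock genes carry a name in the probe table, so little can be set beside these 4. Of the 12 listed evening genes, 3 were measured, and they are *GI*, *COR27* and AT4G33980 themselves. Of the 8 listed morning genes, none was named. The study's paper lists the clock genes *CCA1*, *LHY* and *RVE8* as at least 2-fold higher in *ask1*. The paper counts more L*er* arrays than the 2 used here, and these calls were not checked. Of 8 REVEILLE loci, 2 were measured. The second, AT4G01280, had log2 signals of 7.63, 7.78 and 7.45 on *ask1* arrays 1, 2 and 3, against 7.56 and 7.42 on L*er* arrays 1 and 2, a log2 ratio of 0.13 (standard error 0.13). Like AT5G52660 it thus stayed within a narrow range, with overlapping genotypes. From the list of clock F-box and day-length genes, 1 of 13 was measured. This gene, AT1G69570, had 5.54, 5.86 and 5.15 in *ask1*, against 5.26 and 5.62 in L*er*, again with overlap. From 14 other clock genes, 2 were measured. *TIC*, a nuclear regulator of the clock, had a log2 ratio of 0.07 and *XCT* of 0.08. *TIC* differed between L*er* replicates 2 and 1 by 0.01 and *XCT* by -0.09, so neither shared the difference seen in *GI* and *COR27*. None of these genes passed the adjusted test.

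*COR27* is also a cold-induced gene, and 4 of 15 listed genes of the cold response were measured. All 4 had a mean log2 ratio below 0, where 52.5% of all genes and unnamed probe sets did. The ratios ran from -1.74 for *COR15B* to -0.09 for *LTI30*, a dim gene with log2 signals between 4.50 and 5.34. The median ratio of the 4 was -1.15 beside -0.01 over all genes and unnamed probe sets. This list too was chosen with earlier results of these data known, so these values are a description only. By limma none of the 4 passed the adjusted test, and 1, *COR47*, had an unadjusted p under 0.05 (unadjusted p = 0.0274 from limma, log2 ratio -0.74), as 6.95% of all genes and unnamed probe sets did. *COR15B*, whose product protects chloroplast membranes in the cold, had log2 signals of 8.81, 6.57 and 8.45 on *ask1* arrays 1, 2 and 3, against 8.70 and 10.65 on L*er* arrays 1 and 2. L*er* replicate 2 was again the highest array, but *ask1* replicate 2 lay 1.88 or more below the other *ask1* arrays, where the whole *ask1* span of *COR27* was 0.42. Of the 24 listed genes of light input, only the transcription factor gene *HYH* was measured, at 5.37, 5.95 and 5.77 in *ask1*, against 4.52 and 3.96 in L*er*. Its log2 ratio was 1.46 (standard error 0.23, adjusted p = 0.246 from limma). *HYH* was thus lowest in L*er* replicate 2, the array in which *COR27* and AT4G33980 were highest. Both of its L*er* signals were dim, however, below the limit of 5 used above for the mean signal.

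*ask1* replicate 2, the *ask1* array nearest to the wild type, had signals near those of L*er* in the 3 of 11 listed sugar starvation genes that were measured. AT2G20670, the one with the lowest ratio, had log2 signals of 4.81, 10.65 and 5.16 on *ask1* arrays 1, 2 and 3, against 9.61 and 9.83 on L*er* arrays 1 and 2. The 4 clock-linked genes did not divide the arrays in this way. In *COR27*, AT4G33980 and *GI*, *ask1* replicate 2 was the lowest *ask1* array, by 0.18, 0.22 and 0.49 from the next one. In AT5G52660 it was the highest, by 0.19. Without *ask1* replicate 2 the log2 ratios were -1.17 for *COR27*, -1.76 for AT4G33980, 1.11 for *GI* and -0.22 for AT5G52660. None of these then passed the adjusted test, although 373 genes and unnamed probe sets did.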

How the data were processed

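The authors hybridized total RNA of floral buds to Affymetrix ATH1 arrays and deposited log2 signals normalized with RMA. The version is not given in the sources used here. The study's methods count more L*er* arrays than the 2 used here. The platform annotation gives a single gene for 13513 of 22746 probe sets, several genes for 503, and 8730 are unnamed here. Where a gene had more than 1 such probe set the brightest stood for it, so that 13356 genes were named, and the remaining probe sets stayed in the table unnamed (22589 features tested). *ask1* was compared with L*er* over all features by a 2-sided moderated test in limma 3.58.1 under R 4.3.3, with Benjamini-Hochberg adjustment and a threshold of 0.05. The fit was checked on simulated data in which both genotypes had the same spread. That check does not cover the wider L*er* spread of *COR27*, AT4G33980 and *GI*. The labels call the arrays biological replicates, and their small number limits the precision. The median log2 signal per array was between 7.07 and 7.18.

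The genes and lists were chosen with earlier results of these data known. Named were the 4 genes, all measured genes of 4 clock lists, extremes of further lists and the 5 nearest profiles. *UFO*, *AMS*, AT5G07230, *EXPA7*, *MGH3*, AT5G45880 and the genes ranked by the L*er* difference were singled out afterwards. The same ratios were recomputed with array weights, a mean-variance trend, a replicate block, the methods' t-test, median-centred or quantile-normalized arrays, without dim features, with 2 other ways of choosing probe sets, and with each array omitted. Promoter and protein sequences were not analysed here.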

Additional observations from a re-analysis of the deposited data

How the results depend on the processing

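The log2 ratios of the 4 genes were recomputed under 14 alternatives. AT4G33980 and AT5G52660 kept their direction in all 14, and *COR27* and *GI* in 13 each. The ratio of *COR27* was 0.35 without L*er* replicate 2 and that of *GI* was -0.041 without L*er* replicate 1. With all arrays kept, the ratios ranged from -1.39 to -1.18 (*COR27*), -1.94 to -1.78 (AT4G33980), 0.86 to 0.98 (*GI*) and -0.19 to -0.12 (AT5G52660). With 1 array left out they ranged from -2.90 to 0.35, -3.03 to -0.68, -0.041 to 1.85 and -0.23 to -0.07 in the same order. With a lone L*er* array, its spread is taken to be that of the *ask1* arrays. No alternative brought a gene past the adjusted test. The adjusted p values from limma and the methods' t-test ranged from 0.104 to 1 (*COR27*), 0.0875 to 1 (AT4G33980), 0.279 to 1 (*GI*) and 0.551 to 1 (AT5G52660). AT4G33980 met the criteria of the methods in 11 of 14 alternatives, the exceptions being the methods' t-test and the omission of *ask1* replicate 1 or L*er* replicate 2.

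Over all genes and unnamed probe sets, 3 passed the adjusted test. The count was 0 with the methods' t-test (1321 at an unadjusted p under 0.05), 1 with quantile normalization and between 0 and 373 with 1 array left out. A 2-fold difference with an unadjusted p under 0.05 was found in 133 when the limma p was used. With the methods' t-test, the study's own rule, the count was 68. By the limma p it was 235 with array weights and 95 to 342 with 1 *ask1* array left out. With the replicate number as a block the ratios were -1.39, -1.94, 0.86 and -0.12, and the counts 2 and 156, which changed no call of the 4 genes. Deviations from the group means correlated at -0.26 and -0.01 between arrays of the same number. With only 2 L*er* arrays their deviations mirror each other, so both values use the same L*er* difference. They cannot decide whether arrays of the same number were paired. Median centring and quantile normalization, chosen for this difference after seeing the data, gave 3.34 and 3.28 for *COR27* in L*er* replicate 2 minus L*er* replicate 1, 2.46 and 2.40 for AT4G33980, and 2.00 and 1.97 for *GI*. The cause of these dependences was not tested.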
